A study of Mus musculus with 9 samples.

Results

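The genes described here encode the interstitial collagens of a fibroblast matrix, the enzymes that modify and crosslink them, and the elastic fibre and matricellular proteins laid down beside them. They form a list of 37 genes, set by name with earlier results of these data known. Of these, 35 were measured on a probe set with a single gene symbol, out of 19935 genes tested. Fbn1 and Loxl2 had no such probe set and were not analysed here. Only Loxl4 had more than 1 probe set, and the one with the highest mean over the 9 arrays was used.

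Messenger RNA was measured on Affymetrix Mouse Gene 1.0 ST arrays in NIH 3T3 cells, a mouse embryonic fibroblast line, with 3 biological replicates and 1 array each in every group. Control cells stably carried the empty shRNA vector pLKO.1. Net shRNA cells stably expressed an shRNA against Net, the product of Elk3, and Sap-1 shRNA cells one against Sap-1, the product of Elk4. In all 3 groups the cells attached to plastic coated with fibronectin for 2 hours, stayed overnight without serum and were lysed 1 hour after bovine serum was returned, at 10% per the sample protocols and 20% per the series text. Every array was thus taken after serum. The labels do not say how many independently transduced lines each group holds, nor that replicates came from separate cultures, so p-values measure the spread between these samples.

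Fibrillar collagens assemble into striated fibres after their propeptides are cleaved. Lysyl hydroxylases and prolyl hydroxylases modify the chains inside the cell, and lysyl oxidases then oxidise lysines outside it, which starts the covalent crosslinks that give collagen and elastin their strength. Matricellular proteins such as periostin, tenascin C and the thrombospondins carry little load themselves and tune how cells meet that scaffold. Net and Sap-1 belong to the ternary complex factors, which have an ETS domain and act at promoters together with serum response factor.

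The targeted transcripts were examined first. Elk4 fell by 65.5% in Sap-1 shRNA arrays (limma adjusted p = 9.2e-10), and Elk3 fell by 25.5% in Net shRNA arrays (adjusted p = 1.1e-05). Elk4 also fell by 26.4% in Net shRNA arrays (adjusted p = 2.3e-05), and Elk3 fell by 8.23% in Sap-1 shRNA arrays (adjusted p = 0.023), so both factors' transcripts were reduced in each knockdown. Srf, the gene of serum response factor, fell by 0.19 on the log2 scale in Sap-1 shRNA arrays (adjusted p = 0.0085) and lay at 0.01 in Net shRNA arrays (adjusted p = 0.96). Fibroblast markers stood high, 10 of 12 above the median level of all probe sets, with Vim at 13.91 and Pdgfrb at 12.21 in control on the log2 scale. Of those 12 markers 5 were lower in each knockdown and 0 higher by limma (0 and 1 higher at an unadjusted p under 0.05). Pdgfra, which fell by 1.74 in Sap-1 shRNA arrays, had the largest difference. The summed linear level of the 12, on the log2 scale, ran from 15.74 to 15.76 in control, 15.66 to 15.68 in Net shRNA arrays and 15.48 to 15.49 in Sap-1 shRNA arrays, and its part in the matrix results was not tested. Summed in the same way, chondrocyte and osteoblast markers ran from 12.76 to 12.86, 12.91 to 12.94 and 12.53 to 12.57 in these groups, with 1 of 8 higher in Net shRNA arrays and 1 of 8 lower after Sap-1 knockdown. The marker called was Sox9 both times, which at 12.61 in control made up most of that sum. The 6 myofibroblast and smooth muscle markers ran from 13.76 to 13.84, 13.82 to 13.83 and 13.82 to 13.85, a sum made up mostly of Acta2 (13.38 in control). By limma 1 was higher and 1 lower in Net shRNA arrays, and 1 higher and 2 lower in Sap-1 shRNA arrays. Des rose by 0.38 and 0.63 and Lmod1 fell by 0.46 and 0.33 in Net and Sap-1 shRNA arrays. Cnn1 fell by 0.23 in Sap-1 shRNA arrays. Over all genes 23.6% and 29.7% were called. Epithelial, endothelial, macrophage, skeletal muscle and adipocyte markers had list medians of 6.17 to 7.32 in control arrays, with 2 of 9, 2 of 8, 2 of 8, 0 of 7 and 1 of 6 higher by limma in Net shRNA arrays (0 of the skeletal muscle markers at an unadjusted p under 0.05). After Sap-1 knockdown 1, 2, 1, 1 and 0 of them were higher by limma (0 adipocyte markers at an unadjusted p under 0.05). Lower were 1 adipocyte marker in Net shRNA arrays and 1 endothelial, 1 macrophage, 1 skeletal muscle and 1 adipocyte marker in Sap-1 shRNA arrays. The summed endothelial markers ran from 9.76 to 9.85 in control, 10.19 to 10.28 in Net shRNA and 9.94 to 10.00 in Sap-1 shRNA arrays, with Tek at 6.74, 8.58 and 6.44 (adjusted p = 2.7e-09 and 0.0012 against control), and their part in the matrix results was not tested. In bulk RNA, fewer cells of a type and less RNA per cell cannot be told apart.

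Many of the matrix genes differed from control in each knockdown, and in neither did the list move as a block. Control cells carried the empty vector and no group carried a non-targeting shRNA. An effect of expressing any shRNA, or of the line, therefore cannot be told apart from an effect of the targeted gene. In Net shRNA arrays 6 of 35 members were higher and 10 lower than control, 45.7% called at an adjusted p under 0.05, against 23.6% of all genes tested (13.4% higher, 10.2% lower). In Sap-1 shRNA arrays 7 were higher and 17 lower, 68.6% called, against 29.7% of all genes (15.8% higher, 13.9% lower). Between the knockdowns 8 members were higher in Sap-1 shRNA and 12 were lower, 57.1% called, against 27.5% of all genes (13.3% higher, 14.2% lower). Bright genes were called more often in general. Of the 10767 genes at or above the median level of all probe sets, 38.9%, 47.5% and 44.4% were called in the same comparisons, beside 48.5%, 72.7% and 60.6% of the 33 members at that level. The excess was smallest in Net shRNA arrays (48.5% beside 38.9%). Shares by role below are set beside all genes and do not allow for level. The median difference over the list was -0.01, -0.10 and -0.05 on the log2 scale, and that over all genes 0.00, -0.02 and -0.02.

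Large differences were concentrated in few members. A called difference of at least 1.5-fold was reached by 7 members in Net shRNA arrays (20%, against 2.56% of all genes), by 9 in Sap-1 shRNA arrays (25.7%, against 4.46%) and by 9 between the knockdowns (25.7%, against 4.64%). One of at least 2-fold was reached by 2 members in Net shRNA arrays (5.71%, against 0.898% of all genes), by 6 in Sap-1 shRNA arrays (17.1%, against 1.54%) and by 6 between the knockdowns (17.1%, against 1.8%). The groups did not overlap for 21, 27 and 26 of 35 members, where 34.3%, 41% and 37.4% of all genes were so separated. Both knockdowns were set against the same control arrays, so their values are given side by side and the direct comparison tests whether they differ.

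**Figure D1:**
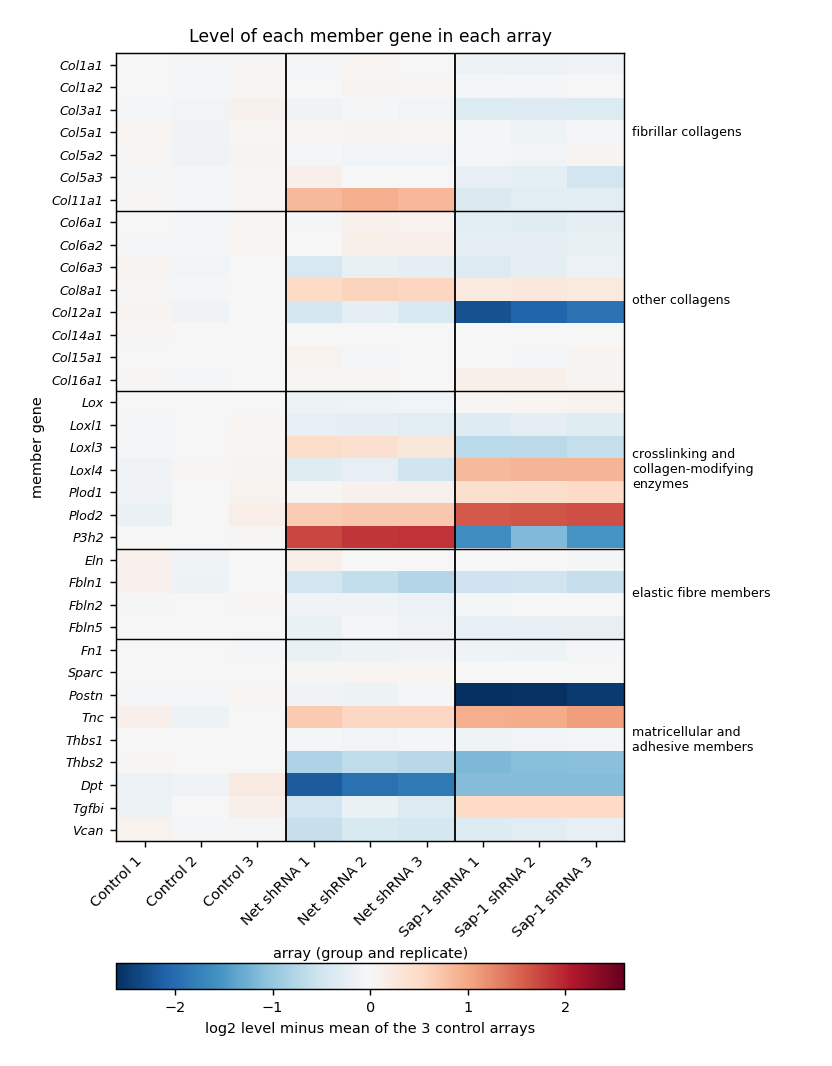
Heat map of 35 member genes (rows, by role) in 9 arrays (columns, by group and replicate), coloured by the log2 level minus the mean of the 3 control arrays. Postn and Col12a1 are dark blue in the Sap-1 shRNA arrays alone, P3h2 is red under Net shRNA and blue under Sap-1 shRNA, and most of the fibrillar collagens stay pale in all 9.

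The fibrillar collagens, the load-bearing chains of the interstitial matrix, had 1 of 7 members higher in Net shRNA arrays, while 4 were lower in the Sap-1 shRNA arrays. That made 14.3% and 57.1% called, beside 23.6% and 29.7% of all genes. In the opposite directions 0 were called by limma, 0 at an unadjusted p under 0.05, and 0 in any alternative. Their median difference was 0.04 in Net shRNA arrays and -0.13 in Sap-1 shRNA arrays. Col1a1 and Col1a2 encode the chains of type I collagen, which combine in 1 molecule. Col1a1 read 13.17, 13.11 and 13.20 in control, 13.11, 13.21 and 13.15 in Net shRNA and 13.02, 13.01 and 13.06 in Sap-1 shRNA arrays. The Sap-1 shRNA arrays were the 3 lowest, and control and Net shRNA arrays overlapped. The difference from control was -0.13 (SE 0.04, adjusted p = 0.043) in Sap-1 shRNA arrays, a call lost when any of 5 of the 9 arrays was left out (control replicates 1 and 3, Net shRNA replicate 3, Sap-1 shRNA replicates 1 and 2, adjusted p up to 0.13). It lay at 0.00 in Net shRNA arrays (adjusted p = 0.99), and Col1a2 at 0.04 and -0.03 in Net and Sap-1 shRNA arrays (adjusted p = 0.57 and 0.62). After subtraction of the median deviation of the 50 neighbouring genes on the chromosome in each array (here called correction for neighbouring genes), Col1a2 was called in Sap-1 shRNA arrays (-0.13, adjusted p = 0.028).

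Col3a1, the chain of type III collagen that mixes with type I in soft tissue, fell by 0.34 in Sap-1 shRNA arrays (SE 0.05, adjusted p = 0.00036) and lay at -0.07 in Net shRNA arrays (adjusted p = 0.45). Its neighbour on chromosome 1, Col5a2, with no protein-coding gene between them in RefSeq's order, lay at -0.01 in Sap-1 shRNA arrays (adjusted p = 0.87), so the adjacent pair did not share the call. Type V collagen sets fibril diameter. Of its chains, Col5a3 fell by 0.32 in Sap-1 shRNA arrays (SE 0.07, adjusted p = 0.0055), whereas Col5a1 lay at -0.08 (adjusted p = 0.27). In Net shRNA arrays Col5a1, Col5a2 and Col5a3 lay between -0.06 and 0.06, and none was called.

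Col11a1 was the fibrillar collagen with the largest difference in Net shRNA arrays and between the knockdowns, while Col3a1 differed more from control in Sap-1 shRNA arrays. It encodes a chain of type XI collagen, a minor fibrillar collagen known best from cartilage fibrils. Its levels were 8.97, 8.88 and 8.97 in control, 9.78, 9.89 and 9.81 in Net shRNA and 8.56, 8.67 and 8.64 in Sap-1 shRNA arrays. No 2 groups overlapped, with Net shRNA arrays on top and Sap-1 shRNA arrays at the bottom. Against control it rose by 0.88 in Net shRNA arrays (SE 0.05, adjusted p = 3.6e-07) and fell by 0.32 in Sap-1 shRNA arrays (SE 0.05, adjusted p = 0.00041). After correction for neighbouring genes the Sap-1 shRNA difference from control was -0.18 (adjusted p = 0.014). The difference of Sap-1 shRNA minus Net shRNA was -1.20 (SE 0.05, adjusted p = 1.2e-08). Col2a1, the partner collagen of cartilage, lay at 0.02 and -0.06 and was called in neither knockdown.

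The other collagens had 1 of 8 members higher and 2 lower in Net shRNA arrays, and 2 higher and 4 lower in Sap-1 shRNA arrays. That made 37.5% and 75% called, beside 23.6% and 29.7% of all genes. Col12a1 stood out among these collagens. It encodes a fibril-associated collagen with interrupted triple helices, which coats the surface of type I fibrils. The arrays gave 11.11, 10.95 and 11.05 in control, 10.58, 10.79 and 10.65 in Net shRNA and 8.78, 8.98 and 9.11 in Sap-1 shRNA arrays. The Sap-1 shRNA arrays lay far below the rest, and Net shRNA arrays lay below every control array. It fell by 2.08 in Sap-1 shRNA arrays (SE 0.08, adjusted p = 1.5e-08), to 23.6% of the control level, and by 0.36 in Net shRNA arrays (SE 0.08, adjusted p = 0.0085). The direct difference was -1.72 (SE 0.08, adjusted p = 5.2e-08).

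Type VI collagen forms beaded microfilaments around cells from chains encoded by Col6a1, Col6a2 and Col6a3. Col6a1 read 12.27, 12.24 and 12.34 in control, 12.25, 12.40 and 12.38 in Net shRNA and 12.01, 11.96 and 12.05 in Sap-1 shRNA arrays. Here the Sap-1 shRNA arrays were the 3 lowest, and control and Net shRNA arrays overlapped. In Sap-1 shRNA arrays Col6a1 fell by 0.27 (SE 0.05, adjusted p = 0.0017) and Col6a2, its direct neighbour on chromosome 10, by 0.23 (SE 0.05, adjusted p = 0.0032). They lay at 0.06 and 0.10 in Net shRNA arrays (adjusted p = 0.48 and 0.18). Col6a3, on chromosome 1, differed from this pair in that it fell by 0.28 in Net shRNA (adjusted p = 0.012) and by 0.25 in Sap-1 shRNA arrays (adjusted p = 0.018), and lay at 0.03 between the knockdowns (adjusted p = 0.81). Its Net shRNA call was lost without control replicate 1 (adjusted p = 0.057). Its Sap-1 shRNA call was lost without control replicate 1 or 3 or Sap-1 shRNA replicate 1 or 2 (adjusted p up to 0.078), and both calls were lost after correction for neighbouring genes (-0.18 each, adjusted p = 0.11 and 0.081).

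Col8a1, a short-chain collagen that forms open networks, rose in both knockdowns. It was higher by 0.55 in Net shRNA arrays (SE 0.04, adjusted p = 1.9e-06) and by 0.27 in Sap-1 shRNA arrays (SE 0.04, adjusted p = 0.00022), and the 2 knockdowns differed by -0.28 (Sap-1 shRNA minus Net shRNA, adjusted p = 0.00016). Col16a1, another fibril-associated collagen, was higher by 0.12 in Sap-1 shRNA arrays (SE 0.04, adjusted p = 0.048). That call was lost when any of 7 of the 9 arrays was left out, all but control replicate 1 and Sap-1 shRNA replicate 3 (adjusted p up to 0.17), and the value was -0.05 after correction for neighbouring genes. Col14a1 and Col15a1 lay below the median level of all probe sets, between 7.25 and 7.39 in all 9 arrays, with differences of -0.01 to 0.02 and no call. After correction for neighbouring genes Col14a1 was called lower in Sap-1 shRNA arrays (-0.25, adjusted p = 0.0012) and between the knockdowns (-0.24, adjusted p = 0.0019). Its uncorrected differences there were 0.00 and 0.01, so these calls came from the neighbours' value that was subtracted.

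Among the crosslinking and collagen-modifying enzymes, Loxl3 and Loxl4 went in opposite directions to each other. These and P3h2 were also called in opposite directions in the 2 knockdowns, while Plod2 rose and Loxl1 fell in both. In Net shRNA arrays 3 of 7 enzymes were higher and 2 lower, in Sap-1 shRNA arrays 3 higher and 3 lower, and 4 higher and 2 lower between them. That made 71.4%, 85.7% and 85.7% called, beside 23.6%, 29.7% and 27.5% of all genes. The median absolute difference of the enzymes was 0.35 in Net shRNA arrays and 0.68 in Sap-1 shRNA arrays. It was 0.06 and 0.13 for the fibrillar collagens and 0.07 and 0.09 for all genes.

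P3h2 had the largest difference of any member. It encodes prolyl 3-hydroxylase 2, which hydroxylates prolines of collagen chains. The gene read 8.27, 8.27 and 8.32 in control, 10.03, 10.14 and 10.17 in Net shRNA and 6.67, 7.14 and 6.76 in Sap-1 shRNA arrays. Every Net shRNA array lay above and every Sap-1 shRNA array below all control arrays. Against control it rose by 1.82 in Net shRNA arrays (SE 0.10, adjusted p = 3.1e-07) and fell by 1.43 in Sap-1 shRNA arrays (SE 0.10, adjusted p = 1.1e-06). Sap-1 shRNA minus Net shRNA was -3.25 (SE 0.10, adjusted p = 1.2e-09), a 9.54-fold difference. The Sap-1 shRNA mean of 6.86 ± 0.25 (SD, n = 3) lay below the median level of all probe sets, 7.52, where array folds are compressed, and its SD was the highest of any member and group.

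Plod2 rose in both knockdowns. Its product, lysyl hydroxylase 2, hydroxylates the lysines of collagen ends and so directs crosslinks toward the stable pyridinoline kind. Plod2 read 8.86, 9.05 and 9.20 in control, 9.70, 9.74 and 9.73 in Net shRNA and 10.63, 10.67 and 10.71 in Sap-1 shRNA arrays. The 3 groups were fully separate, with control lowest and Sap-1 shRNA highest. It rose by 0.69 in Net shRNA arrays (SE 0.07, adjusted p = 4.7e-05) and by 1.64 in Sap-1 shRNA arrays (SE 0.07, adjusted p = 2.8e-08), a 3.11-fold higher level. The difference between the knockdowns was 0.95 (SE 0.07, adjusted p = 2.1e-06). Plod1, the hydroxylase of lysines within the helix, rose by 0.46 in Sap-1 shRNA arrays (SE 0.05, adjusted p = 4.3e-05) and lay at 0.08 in Net shRNA arrays (adjusted p = 0.36). After correction for neighbouring genes, Plod1 was called in Net shRNA arrays (0.24, adjusted p = 0.0027), and its difference between the knockdowns went from 0.39 (adjusted p = 0.00018) to 0.09 (adjusted p = 0.17).

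The lysyl oxidases did not move together. Lox, the founding member, read 13.57, 13.59 and 13.57 in control, 13.45, 13.47 and 13.51 in Net shRNA and 13.60, 13.63 and 13.67 in Sap-1 shRNA arrays. Net shRNA arrays were lowest and Sap-1 shRNA arrays highest, by a small margin. Against control it lay at -0.10 in Net shRNA (adjusted p = 0.084, and 0.0088 with the intensity trend) and 0.06 in Sap-1 shRNA arrays (adjusted p = 0.33). The knockdowns differed by 0.15 (SE 0.04, adjusted p = 0.0091), which was 0.11 after correction for neighbouring genes (adjusted p = 0.055). Loxl1, the oxidase tied to elastic fibres, fell by 0.25 in Net shRNA (SE 0.04, adjusted p = 0.0016) and by 0.30 in Sap-1 shRNA arrays (SE 0.04, adjusted p = 0.00031).

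Loxl3 and Loxl4, related lysyl oxidases with scavenger receptor domains, changed in opposite directions to each other in both knockdowns. Loxl3 read 10.35, 10.38 and 10.40 in control, 10.85, 10.79 and 10.68 in Net shRNA and 9.67, 9.68 and 9.75 in Sap-1 shRNA arrays. Net shRNA arrays were the highest and Sap-1 shRNA arrays the lowest, with no overlap. It rose by 0.39 in Net shRNA arrays (SE 0.05, adjusted p = 0.00015) and fell by 0.68 in Sap-1 shRNA arrays (SE 0.05, adjusted p = 1.3e-06), a difference of -1.07 between the knockdowns (adjusted p = 2.7e-08). Loxl4 read 8.45, 8.58 and 8.62 in control, 8.23, 8.34 and 8.03 in Net shRNA and 9.40, 9.44 and 9.44 in Sap-1 shRNA arrays. The order of the groups was the reverse of that of Loxl3. It fell by 0.35 in Net shRNA (SE 0.07, adjusted p = 0.0048) and rose by 0.88 in Sap-1 shRNA arrays (SE 0.07, adjusted p = 4.4e-06), a difference of 1.23 between the knockdowns (SE 0.07, adjusted p = 2.8e-07). The dimmer second probe set of Loxl4 was also highest in Sap-1 shRNA arrays, at 8.50 to 8.83, against 7.07 to 7.30 in control and 6.83 to 7.26 in Net shRNA arrays, where the last 2 groups overlapped.

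**Figure D2:**
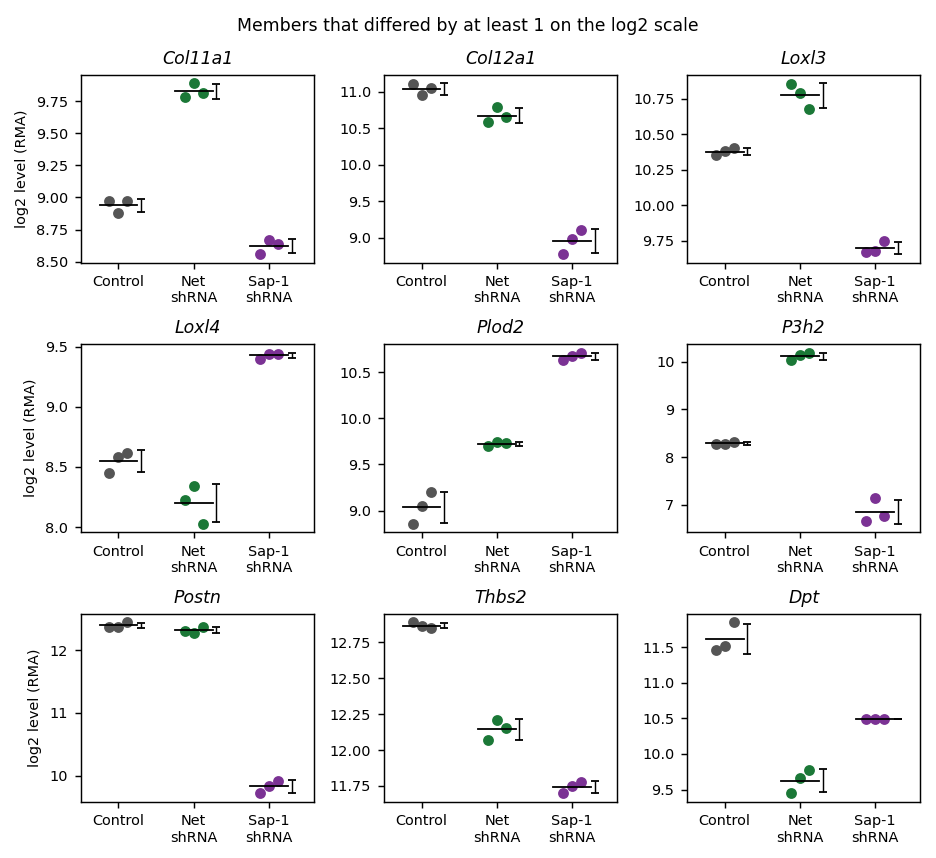
Log2 level (RMA) of the 9 members that differed by at least 1 in any comparison, with 1 point per array, a line at the mean of each group of 3 and bars of ± 1 SD beside it. Each panel has its own scale, which does not start at 0. P3h2, Col11a1 and Loxl3 are highest under Net shRNA and lowest under Sap-1 shRNA, Loxl4 has the reverse order, and Postn overlaps between control and Net shRNA arrays.

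Among the 4 elastic fibre members, 1 was lower after Net knockdown and 2 after Sap-1 knockdown, and 0 were higher in either by limma (0 at an unadjusted p under 0.05). That made 25% and 50% called, beside 23.6% and 29.7% of all genes. Between the knockdowns limma called 0 of 4, beside 27.5% of all genes, with 1 higher and 1 lower at an unadjusted p under 0.05. Fbln1, a fibulin of elastic fibres and basement membranes, fell by 0.63 in Net shRNA (SE 0.07, adjusted p = 9.3e-05) and by 0.56 in Sap-1 shRNA arrays (SE 0.07, adjusted p = 0.00012). Its values were 8.05 to 8.29 in control, 7.42 to 7.67 in Net shRNA arrays and 7.55 to 7.65 in Sap-1 shRNA arrays, with all 6 knockdown arrays below the 3 control arrays. Fbln5, a fibulin that elastic fibre assembly needs, fell by 0.22 in Sap-1 shRNA arrays (SE 0.04, adjusted p = 0.0021) and lay at -0.11 in Net shRNA arrays (adjusted p = 0.086), where it was called without Net shRNA replicate 2 (adjusted p = 0.04), with the intensity trend (0.025) and after correction for neighbouring genes (0.043). Between the knockdowns Fbln5 lay at -0.11 (adjusted p = 0.085) and was called without Net shRNA replicate 1 (adjusted p = 0.025), with the intensity trend (0.024), quantile normalization (0.043), cyclic loess (0.028) or array weights (0.022), and after correction for neighbouring genes (0.021), all adjusted p-values. In the alternatives where it was not called the adjusted p ran from 0.052 to 0.28.

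Fbln2 read 12.90, 12.91 and 12.96 in control, 12.84, 12.84 and 12.78 in Net shRNA and 12.89, 12.93 and 12.92 in Sap-1 shRNA arrays. Net shRNA arrays were lowest and the other groups overlapped. The differences were -0.10 in Net shRNA arrays and -0.01 in Sap-1 shRNA arrays (adjusted p = 0.081 and 0.91), the former called with the intensity trend, quantile normalization or array weights (adjusted p = 0.015, 0.042 and 0.031). It lay at 0.09 between the knockdowns (adjusted p = 0.097), called there with the intensity trend, array weights or correction for neighbouring genes (adjusted p = 0.02, 0.03 and 0.019). Eln, the gene of tropoelastin, had group means of 7.88, 7.91 and 7.85 in control, Net shRNA and Sap-1 shRNA arrays and was called in no comparison (adjusted p = 0.53 to 0.79).

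The matricellular and adhesive members had 1 of 9 higher and 5 lower in Net shRNA arrays, and 2 higher and 4 lower in Sap-1 shRNA arrays. That made 66.7% called in each, beside 23.6% and 29.7% of all genes. Postn had the largest fall against control of any member. Periostin is a secreted protein with fasciclin domains that binds type I collagen and tenascin C. Its gene read 12.38, 12.38 and 12.45 in control, 12.31, 12.28 and 12.38 in Net shRNA and 9.72, 9.84 and 9.92 in Sap-1 shRNA arrays. The Sap-1 shRNA arrays lay apart from all others, and control and Net shRNA arrays overlapped. Postn fell by 2.58 in Sap-1 shRNA arrays (SE 0.06, adjusted p = 1.3e-10), to 16.8% of the control level, and lay at -0.08 in Net shRNA arrays (adjusted p = 0.39). The knockdowns differed by -2.50 (SE 0.06, adjusted p = 1.4e-10).

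Dpt and Thbs2 fell in both knockdowns, in opposite order. Dermatopontin, the product of Dpt, binds decorin and collagen and speeds fibril formation. Dpt read 11.46, 11.52 and 11.85 in control, 9.45, 9.66 and 9.77 in Net shRNA and 10.49, 10.49 and 10.49 in Sap-1 shRNA arrays. All groups were separate, with control highest and Net shRNA lowest. At finer rounding the Sap-1 shRNA values were all 10.4888, a tie whose cause was not tested and which is not taken as a measure of spread. It fell by 1.98 in Net shRNA (SE 0.10, adjusted p = 2e-07) and by 1.12 in Sap-1 shRNA arrays (SE 0.10, adjusted p = 8.6e-06), and Sap-1 shRNA lay 0.86 above Net shRNA (SE 0.10, adjusted p = 6.4e-05).

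Thrombospondin 2, the product of Thbs2, limits vessel growth and affects collagen fibril shape. Thbs2 read 12.89, 12.86 and 12.85 in control, 12.07, 12.21 and 12.15 in Net shRNA and 11.70, 11.75 and 11.78 in Sap-1 shRNA arrays. Control was again highest, but here Sap-1 shRNA arrays were lowest. It fell by 0.72 in Net shRNA (SE 0.04, adjusted p = 1e-06) and by 1.12 in Sap-1 shRNA arrays (SE 0.04, adjusted p = 1.5e-08), with -0.40 between the knockdowns (SE 0.04, adjusted p = 5e-05). Its relative Thbs1, an activator of latent TGF-beta and a serum-induced gene, read 14.02, 14.03 and 14.02 in control, 13.98, 13.96 and 13.99 in Net shRNA and 13.92, 13.95 and 13.98 in Sap-1 shRNA arrays. These values spanned a narrow range, and Thbs1 was called in no comparison (adjusted p = 0.18 to 0.67), but with the intensity trend it was called in Sap-1 shRNA arrays (adjusted p = 0.023).

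Promoter windows are shown for Postn, Thbs2 and Dpt, the matricellular members with falls of at least 1 in Sap-1 shRNA arrays. Each runs from 250 bases before to 50 bases after a RefSeq start site. The motif marked, TATAAA, is not that of the factors targeted or of serum response factor, whose motifs are counted below. The build is GRCm38.p6, and the gene's strand is printed 5′ to 3′ with TATAAA, or its complement on the other strand, in capitals. Only windows that hold TATAAA are printed, which leaves out 1 of the 2 windows of Postn. Postn lies on chromosome 3 (chr3:54360857-54361156, plus strand, 1 of 2 windows listed), Thbs2 on chromosome 17 (chr17:14694213-14694512, minus strand) and Dpt on chromosome 1 (chr1:164796413-164796712, plus strand).
Postn: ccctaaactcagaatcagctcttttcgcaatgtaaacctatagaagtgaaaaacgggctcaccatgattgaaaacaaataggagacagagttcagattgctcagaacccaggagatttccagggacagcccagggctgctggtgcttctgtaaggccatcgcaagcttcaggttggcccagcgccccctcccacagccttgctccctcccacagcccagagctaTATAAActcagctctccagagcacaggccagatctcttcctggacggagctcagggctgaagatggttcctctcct
Thbs2: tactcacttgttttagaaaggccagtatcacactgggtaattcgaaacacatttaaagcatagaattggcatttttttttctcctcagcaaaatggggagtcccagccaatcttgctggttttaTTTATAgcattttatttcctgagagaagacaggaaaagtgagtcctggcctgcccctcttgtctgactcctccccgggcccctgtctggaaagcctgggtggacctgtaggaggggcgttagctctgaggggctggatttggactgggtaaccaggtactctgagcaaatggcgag
Dpt: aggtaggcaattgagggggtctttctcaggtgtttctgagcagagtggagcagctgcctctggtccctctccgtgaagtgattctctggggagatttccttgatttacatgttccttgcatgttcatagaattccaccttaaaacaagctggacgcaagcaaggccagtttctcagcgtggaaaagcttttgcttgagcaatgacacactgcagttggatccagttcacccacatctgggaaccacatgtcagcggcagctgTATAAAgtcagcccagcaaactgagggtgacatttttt
The match starts at position -26 from the start site in the printed window of Postn, where a TATA box usually lies, at -126 on the other strand in Thbs2, and at position 13 after it in Dpt.

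Of the 35 measured members, 23 had such windows, 28 in all. The CArG box, the motif of serum response factor, was searched on both strands as a pair of C, then 6 bases of A or T, then a pair of G, and was in 0 of the 28 windows, as against 1.63% of all 32851 windows listed. The ETS motif CCGGAA, also on both strands, was in 0 of 28, as against 14.9% of all windows. TATAAA was in 7 windows of 6 members (Col3a1, Dpt, Plod1, Postn, Thbs2 and Tnc), as against 13.6% of all windows. These counts describe letters in a short stretch and do not show where a factor binds.

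Tnc, the gene of the anti-adhesive glycoprotein tenascin C, was the matricellular member that rose in both knockdowns. It was higher by 0.59 in Net shRNA (SE 0.07, adjusted p = 0.00013) and by 0.99 in Sap-1 shRNA arrays (SE 0.07, adjusted p = 1.5e-06), and the knockdowns differed by 0.40 (adjusted p = 0.0012). Its values ran from 11.15 to 11.42 in control, 11.83 to 11.96 in Net shRNA arrays and 12.22 to 12.37 in Sap-1 shRNA arrays, with no overlap. Tgfbi, a fasciclin-domain relative of periostin, fell by 0.35 in Net shRNA (SE 0.08, adjusted p = 0.0097) and rose by 0.51 in Sap-1 shRNA arrays (SE 0.08, adjusted p = 0.0006), 0.86 apart (adjusted p = 1.3e-05). Postn and Tgfbi thus changed in opposite directions in Sap-1 shRNA arrays.

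Vcan, the gene of the large proteoglycan versican, fell by 0.48 in Net shRNA (SE 0.06, adjusted p = 0.00013) and by 0.28 in Sap-1 shRNA arrays (SE 0.06, adjusted p = 0.0033). Its difference of 0.20 between the knockdowns (adjusted p = 0.023) was lost without Net shRNA replicate 1 or Sap-1 shRNA replicate 2 or 3 (adjusted p up to 0.089) and was 0.08 after correction for neighbouring genes (adjusted p = 0.31). Fn1, the gene of fibronectin, which also coated the plates, lay 0.13 lower in Net shRNA arrays at an adjusted p of 0.049. That call was lost when any of 8 of the 9 arrays was left out, all but Sap-1 shRNA replicate 3 (adjusted p up to 0.13), and the value was -0.01 after correction for neighbouring genes (adjusted p = 0.9). Fn1 lay at -0.10 in Sap-1 shRNA arrays (adjusted p = 0.11) and was called there with the intensity trend, quantile normalization, cyclic loess or array weights (adjusted p = 0.018, 0.024, 0.039 and 0.03). Sparc, the gene of a collagen-binding protein also called osteonectin, ran from 13.56 to 13.64 over all 9 arrays and was called in no comparison (adjusted p = 0.31 to 0.91).

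**Figure D3:**
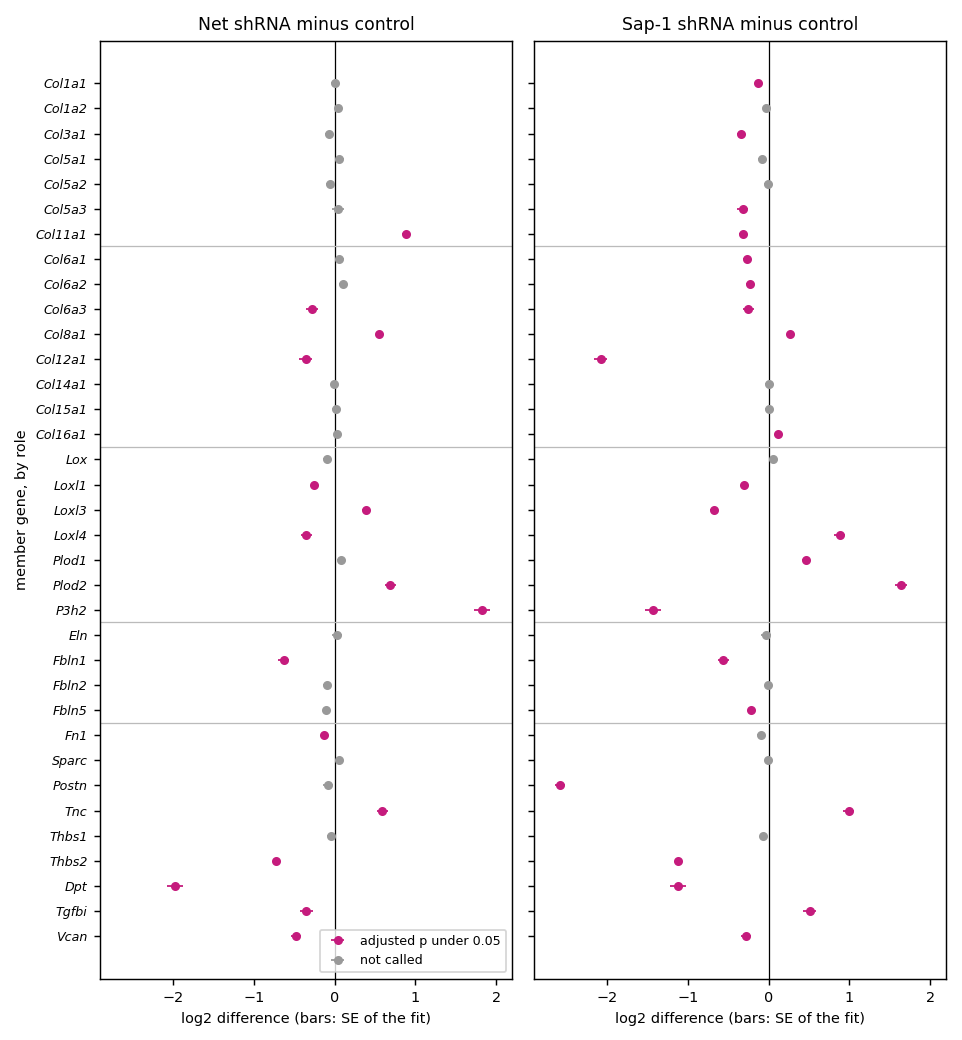
Log2 difference of Net shRNA (left) and Sap-1 shRNA (right) from control for each of 35 members, by role from the fibrillar collagens at the top to the matricellular members at the bottom, with bars of the standard error of the fit. Points with an adjusted p under 0.05 are coloured. Both panels share the 3 control arrays. Among the members called in both panels, P3h2, Loxl3, Loxl4, Tgfbi and Col11a1 lie on opposite sides of 0.

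Compared directly, Sap-1 shRNA arrays were lower than Net shRNA arrays in 4 of 7 fibrillar and 4 of 8 other collagens and higher in 0 by limma (1, Col16a1, at an unadjusted p under 0.05, called with array weights). The share lower over all genes was 14.2%. The fibrillar collagens lower in Sap-1 shRNA were Col11a1, Col5a3 (-0.36, SE 0.07, adjusted p = 0.0027), Col3a1 (-0.28, adjusted p = 0.0017, and -0.51 after correction for neighbouring genes) and Col1a1 (-0.13, adjusted p = 0.048, and -0.04 with adjusted p = 0.53 after that correction). The Col1a1 call was lost when any of 8 of the 9 arrays was left out, all but Net shRNA replicate 1 (adjusted p up to 0.15). Col5a1 lay at -0.13 (adjusted p = 0.052) and was called without control replicate 1 or 2 (adjusted p down to 0.025) and with the intensity trend, the 6 arrays compared, cyclic loess, the filter on dim genes or array weights, but lay at 0.01 after correction for neighbouring genes (adjusted p = 0.93). That correction added calls of Col1a2 and Col5a2 (-0.13 and -0.19, adjusted p = 0.031 and 0.022). The other collagens lower in Sap-1 shRNA were Col12a1, Col6a1 (-0.33, adjusted p = 0.00044), Col6a2 (-0.32, adjusted p = 0.0003) and Col8a1. The enzymes and matricellular members were split, with 4 of 7 and 4 of 9 higher in Sap-1 shRNA and 2 of each lower. Over all genes 13.3% were higher and 14.2% lower.

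**Figure D4:**
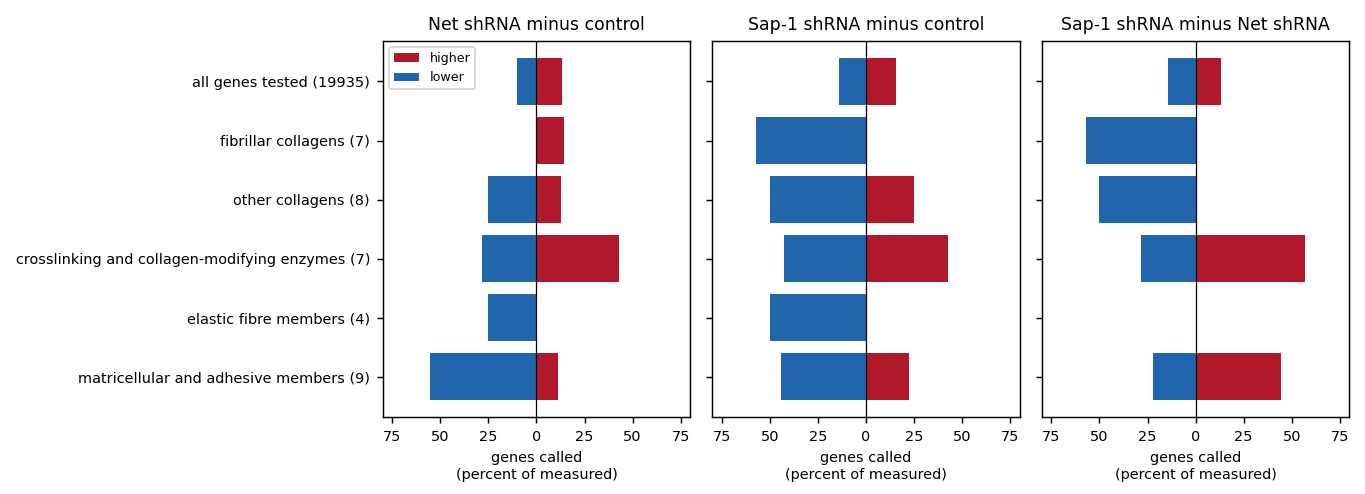
Percent of measured genes called higher (red, to the right) and lower (blue, to the left) for all genes tested and for each role of the members, with the number of genes measured in parentheses, in the 3 comparisons. Collagen roles have no red bar in Sap-1 shRNA minus Net shRNA, and the enzymes have bars on both sides in every panel.

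Genes that fold, process and secrete collagen were listed for their role, with earlier results of these data known. Of these, 6 of 27 were higher and 5 lower in Net shRNA arrays, and 7 higher and 11 lower in Sap-1 shRNA arrays. Limma called 40.7% and 66.7% of them, beside 23.6% and 29.7% of all genes. In Net shRNA arrays Creb3l1, a transcription factor gene of the collagen secretion programme, fell by 0.66 (adjusted p = 3e-05), while Tmem38b, an endoplasmic reticulum ion channel gene, rose by 0.51, the collagen galactosyltransferase gene Colgalt1 by 0.38 and the procollagen proteinase gene Tll1 by 0.41. In Sap-1 shRNA arrays Ctsk, the gene of the collagen-degrading protease cathepsin K, fell by 2.53 (SE 0.05, adjusted p = 1.3e-10), Creb3l1 by 0.97 and the chaperone gene Fkbp14 by 0.49. The prolyl 4-hydroxylase subunit gene P4ha1, which serves triple helix stability, rose by 0.54 (SE 0.05, adjusted p = 7.7e-06). Tmem38b and Colgalt1 rose there too, by 0.23 and 0.19 (adjusted p = 0.029 and 0.02). Ctsk in Sap-1 shRNA arrays (mean 6.10) and Tll1 in control and Net shRNA arrays (6.38 and 6.79) lay below the median level of all probe sets, 7.52.

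Microfibril and elastic fibre partners had 2 of 15 higher and 3 lower in Net shRNA arrays and 3 higher and 6 lower in Sap-1 shRNA arrays. That made 33.3% and 60% called, beside 23.6% and 29.7% of all genes. Adamtsl4, a fibrillin-binding protein gene, rose by 0.73 in Net shRNA arrays and by 0.21 in Sap-1 shRNA arrays (adjusted p = 3.9e-06 and 0.011). Mfap4, a microfibril-associated gene, rose by 0.62 in Net shRNA and fell by 0.66 in Sap-1 shRNA arrays (adjusted p = 0.00028 and 0.00011). Mfap5 fell by 0.26 and 0.65 in Net and Sap-1 shRNA arrays (adjusted p = 0.0045 and 4.4e-06). Ltbp3 fell by 0.16 in Net shRNA arrays (adjusted p = 0.016). Among the falls in Sap-1 shRNA arrays, the latent TGF-beta binding protein gene Ltbp2 fell by 0.59 and the metalloproteinase gene Adamts10 by 0.50.

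Collagen genes outside the list, without the pair Col4a1 and Col4a2, had 2 of 24 higher and 1 lower in Net shRNA arrays and 2 higher and 3 lower in Sap-1 shRNA arrays, 12.5% and 20.8% called, beside 23.6% and 29.7% of all genes. Called in Net shRNA arrays were Col28a1 (0.35), Col10a1 (0.24) and Col20a1 (-0.22). Those with the smallest adjusted p in Sap-1 shRNA arrays were Col4a6 (0.54), Col27a1 (-0.26), Col4a5 (0.18) and Col28a1 (-0.17). Relatives of the matricellular members had 6 of 33 higher and 6 lower in Net shRNA arrays and 9 higher and 8 lower in Sap-1 shRNA arrays. That made 36.4% and 51.5% called, beside the same 23.6% and 29.7% of all genes. Npnt, the gene of the integrin ligand nephronectin, had differences of -1.83 and -1.70 in Net and Sap-1 shRNA arrays, and Srpx2 rose by 2.65 and 1.65. Spon2 fell by 1.22 in Net shRNA arrays and rose by 0.46 in Sap-1 shRNA arrays, while Ecm1 rose by 1.19 and 0.31. The matricellular gene Ccn3 rose by 1.76 in Sap-1 shRNA arrays where Sparcl1, a relative of Sparc, fell by 1.77. In Net shRNA arrays Ccn3 rose by 0.74 and Sparcl1 fell by 0.56. Ccn3 in control (6.96) and Sparcl1 in Sap-1 shRNA arrays (6.73) lay below the median level of all probe sets, 7.52.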

How the data were processed

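The deposited log2 levels were made by the authors with RMA, and the submitters' processing notes name Affymetrix Expression Console; version, settings and genome build are not given in the sources used here. RMA compresses small folds of dim genes and removes changes shared by most genes. Array medians ran from 7.47 to 7.54, the table holds no detection calls, and precision is limited by how many arrays there are.

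Of 28815 probe sets, 21780 had 1 gene symbol, 1605 several and 5430 none in the platform annotation. Symbols were updated through Entrez IDs in RefSeq (GRCm38.p6, 21689 matched), and the probe set with the highest mean represented each of 19935 genes. RefSeq also gave the gene order and promoter windows.

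The test was limma (version 3.58.1, under R 4.3.3, lmFit then eBayes without a trend) in 1 fit over 9 arrays (6 residual and 4.7 prior degrees of freedom), Benjamini-Hochberg adjusted over all genes and called at an adjusted p under 0.05. In the same fit on simulated data for Net shRNA minus control (19935 genes), 56% of genes changed 1.2-fold and 94% of those changed 1.5-fold were called, with 6 false calls.

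The members and lists were chosen with earlier results of these data known. Each array is shown for members called with a log2 difference of at least 1 and for the member of each role with the highest mean. Other members called at 0.3 or more are given with their error, and in related lists up to 4 called genes per knockdown with the smallest adjusted p. Alternatives were the replicate number as a block, a trend with robust variances, the 6 arrays compared, median centring, quantile and cyclic loess normalization, a filter on dim genes, averaging of all probe sets per gene, array weights, each array left out, stricter thresholds, and a correction for neighbouring genes, in which the median deviation of the 50 nearest expressed genes on the chromosome was subtracted in each array.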

Additional observations from a re-analysis of the deposited data

How the results depend on the processing

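Of the 60 called member differences, 44 were of at least 0.3 on the log2 scale, and 43 of these kept their direction and their side of the threshold in all 20 alternatives. The exception was Plod1 between the knockdowns (0.09, adjusted p = 0.17, after correction for neighbouring genes). The called difference that changed sign was Col16a1 in Sap-1 shRNA arrays, at -0.05 after that correction, which also added calls of Col1a2, Col5a2, Col14a1, Fbln2 and Fbln5 between the knockdowns (-0.13, -0.19, -0.24, 0.14 and -0.15), of Col1a2 and Col14a1 in Sap-1 shRNA arrays (-0.13 and -0.25) and of Plod1 and Fbln5 in Net shRNA arrays (0.24 and -0.13). Why the neighbouring genes shifted was not tested. Over all 105 member differences and the alternatives, 63 values lost their call with the sign kept, 1 lost it with the sign changed, and 35 gained one.

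Requiring at least 1.5-fold left 4 members higher and 3 lower in Net shRNA arrays, 3 higher and 6 lower in Sap-1 shRNA arrays, and 4 higher and 5 lower in Sap-1 minus Net shRNA, fewer by construction. With each array left out in turn the members higher numbered 6 in Net shRNA arrays and 6 to 7 in Sap-1 shRNA arrays and 7 to 8 between them, and the members lower 8 to 10, 15 to 17 and 11 to 13.

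Whether arrays with the same replicate number shared a batch cannot be decided from so few arrays per group. Correlations of same-numbered deviations ran from -0.11 to 0.36, and 4 of 9 arrays correlated best with their own number. The correlations were all positive for replicate 1 (0.25, 0.17 and 0.36) and mixed in sign for the other replicates. With the replicate block 15, 22 and 19 members were called in place of 16, 24 and 20.

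Of 50 genes changed 1.2-fold in the simulated Net shRNA comparison 56% were called. In the real comparison 4714 genes were called, far more than were changed in the simulation, so that share does not carry over to the members. A member not called may still differ by a small amount.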
